A study of Mus musculus with 4 samples.

Results

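Immediate early genes are described here through 9 members, Fos, Fosb, Jun, Junb, Atf3, Egr1, Klf6, Ier2 and Dusp1, chosen by symbol from the 24421 genes of a raw count table of whole mouse embryos. All 9 were found, and all had at least 1 read in each of the 4 libraries. All embryos were of the ICR strain. Wild-type (WT) embryos gave 1 library at embryonic day 7.5, called E7.5 WT, and 1 a day later, called E8.5 WT, and embryos that lacked Ddx6 gave 2 at E8.5, called KO1 and KO2. Where 4 values follow each other, they stand in this order. KO embryos were homozygous for a Ddx6 allele from which a floxed exon had been removed by a cross to a CAG-Cre deleter line, and they came from crosses of heterozygous mice. Per the study, the KO libraries were pools of embryos. KO1 mixed embryos from before and after head-fold formation, and KO2 held only embryos from before it.

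Immediate early genes are transcribed within minutes of a growth factor, stress or handling stimulus, from promoters already loaded with factors such as SRF, ELK1 and CREB, and without new protein synthesis. Their mRNAs are short-lived, and many carry AU-rich elements in the 3′ UTR that recruit deadenylation and decapping factors. DDX6 is an RNA helicase that links deadenylation to decapping and represses translation. FOS and JUN family proteins pair through leucine zippers into the transcription factor AP-1, and in the gastrulating embryo FGF and ERK signaling is a known inducer of such genes.

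The sequence that recruits decay factors to such mRNAs is shown first, because short-lived mRNAs are known for it. The word TATTTAT, the core of AU-rich elements as written in DNA letters, was searched on the sense strand of the annotated 3′ UTR. It was found in 6 of 9 members, against 30.6% of 13419 genes kept with a 3′ UTR. Dusp1 held 3 copies, Fos and Klf6 held 2, Fosb, Jun and Atf3 held 1, and Junb, Egr1 and Ier2 held none. The shorter word ATTTA was present in 8 of 9 members, all but Ier2, and in 69.9% of all genes. A window around 1 word of each member with it follows, 5′ to 3′ in GRCm38 coordinates, with TATTTAT in capitals.
Fos (chr12:85477102-85477131, plus strand): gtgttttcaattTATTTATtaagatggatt
Fosb (chr7:19303326-19303355, minus strand): cccacccccagcTATTTATccctttcctgg
Jun (chr4:95049079-95049108, minus strand): tttgcttgtgcaTATTTATaatagcgttcg
Atf3 (chr1:191170338-191170367, minus strand): gaaaatattactTATTTATcccagtattcc
Dusp1 (chr17:26506159-26506188, minus strand): ggagctggtcctTATTTATttaacaccccc
Klf6 (chr13:5868489-5868518, plus strand): agctacgtctctTATTTATgccttgaggac

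The promoters of Fos, Fosb, Jun and Junb are shown because these AP-1 genes are the 4 members whose counting intervals put KO2 above KO1. Of all genes kept, 21.8% had such an interval, and Fosb was kept only for its reads in KO2. A part of promoter sequence in the levels was not tested. The windows are RefSeq sequences of GRCm38.p6, from 250 bases before to 50 bases after the transcription start, 5′ to 3′ on the gene's strand. TGACG, the core of the cyclic AMP response element bound by CREB and ATF proteins, is in capitals, and the window of Jun has none.
Fos promoter (chr12:85473640-85473939, plus strand): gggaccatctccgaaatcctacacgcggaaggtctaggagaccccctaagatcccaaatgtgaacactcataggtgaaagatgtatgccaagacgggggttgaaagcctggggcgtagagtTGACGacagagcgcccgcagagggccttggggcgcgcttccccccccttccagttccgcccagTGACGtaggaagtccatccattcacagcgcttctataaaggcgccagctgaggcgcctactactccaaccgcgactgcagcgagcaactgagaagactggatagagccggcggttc
Fosb promoter (chr7:19309996-19310295, minus strand): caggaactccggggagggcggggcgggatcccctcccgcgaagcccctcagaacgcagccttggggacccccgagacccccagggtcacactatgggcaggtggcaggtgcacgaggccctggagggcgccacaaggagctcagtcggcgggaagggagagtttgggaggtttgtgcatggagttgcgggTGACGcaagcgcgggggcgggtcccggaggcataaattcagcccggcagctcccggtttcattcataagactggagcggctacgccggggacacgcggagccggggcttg
Jun promoter (chr4:95052173-95052472, minus strand): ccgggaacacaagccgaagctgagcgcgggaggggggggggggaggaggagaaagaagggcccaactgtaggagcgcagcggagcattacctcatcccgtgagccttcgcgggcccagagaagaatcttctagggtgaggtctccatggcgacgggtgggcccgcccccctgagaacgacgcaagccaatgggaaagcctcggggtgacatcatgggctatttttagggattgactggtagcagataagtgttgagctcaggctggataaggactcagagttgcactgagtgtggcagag
Junb promoter (chr8:84978699-84978998, minus strand): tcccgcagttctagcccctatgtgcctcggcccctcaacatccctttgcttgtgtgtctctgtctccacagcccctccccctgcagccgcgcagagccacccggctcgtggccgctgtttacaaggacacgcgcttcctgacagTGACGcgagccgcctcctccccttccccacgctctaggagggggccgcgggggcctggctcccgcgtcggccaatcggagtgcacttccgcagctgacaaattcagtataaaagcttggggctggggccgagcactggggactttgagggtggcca
Both strands were searched in the 7 members with a window. Ier2 and Egr1 had no window. Sequence outside the windows was not searched, so a word not found here may lie elsewhere near the gene. TGACG or its complement was found in 5 of 7 members (Fos, Fosb, Junb, Atf3 and Dusp1) and in 20.8% of 32851 windows. It started at -129 and -66 in Fos, at -60 in Fosb, at -106 in Junb and at -7 in Atf3. The full element TGACGTCA, which contains TGACG on each strand, was found in Dusp1 alone among the members and in 1.79% of windows. TATAAA was found in Fos and Junb and in 13.6% of windows. The AP-1 words TGACTCA and TGAGTCA (5.20% of windows) and the CArG box of SRF (1.63%) were found in none of the 7.

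Total counts were between 8198402 in KO1 and 12562640 in E8.5 WT. Ddx6, the targeted gene, had 2943 and 5715 reads in the WT libraries, 706 in KO1 and 929 in KO2, a mean log2 change against E8.5 WT of -2.54 ± 0.10 (SD, n = 2). All 10 embryo markers, among them Pou5f1, Sox2 and T, had reads in every library. Against KO1, 3 of these 10 were higher in KO2 and 3 lower by a log2 change over 1, where 5.99% and 4.89% of genes kept were. Pou5f1, for example, had 867 reads in KO1 and 4085 in KO2, and Meox1 had 235 and 6. KO2 also stood apart from KO1 in markers of some tissues around the embryo. The summed level of 7 trophoblast markers was 316 CPM (counts scaled by library size to a common total) at the earlier WT stage, 183 at the later, 425 in KO1 and 792 in KO2. Most of this in 3 of the libraries was Hand1, also a gene of embryonic mesoderm, with 216, 181, 422 and 331 CPM. Without Hand1, a choice made after the values were seen, the other markers summed to 99.5, 1.30, 2.62 and 461 CPM. That of 4 decidua markers was 138, 12.4, 23.9 and 130 CPM in the same order. Primitive erythroid markers summed to 20.2, 241, 1.79 and 1.56 CPM. The sum of 5 visceral endoderm markers was 4495, 3562, 2306 and 2323 CPM. It was thus alike in KO1 and KO2 and lower there than in either WT library.

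Levels within the embryo were compared between members as CPM per kilobase of the longest coding transcript (RPKM). Ier2, a small nuclear regulator, and Klf6, a zinc-finger factor, were the most abundant members in all 4 libraries, with 30.6 to 34.6 RPKM for Ier2 and 23.0 to 33.3 RPKM for Klf6. These ranges overlapped each other and lay above those of all other members. Jun (6.93 to 12.9 RPKM), Junb (5.67 to 12.9 RPKM) and Dusp1 (4.13 to 8.07 RPKM) came next, with overlapping ranges. Atf3 (1.61 to 3.72 RPKM) lay below Dusp1 without overlap but overlapped Fos (0.452 to 2.37 RPKM). Egr1 had between 0.399 and 0.862 RPKM, and Fosb between 0.0430 and 0.716 RPKM. Fosb was the lowest member in both WT libraries and in KO1, and Egr1 was the lowest in KO2. At E8.5 WT, Ier2 lay above 84.1% and Fos above 15.1% of genes kept. The plot of CPM by library gives each member's values.

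**Figure D1:**
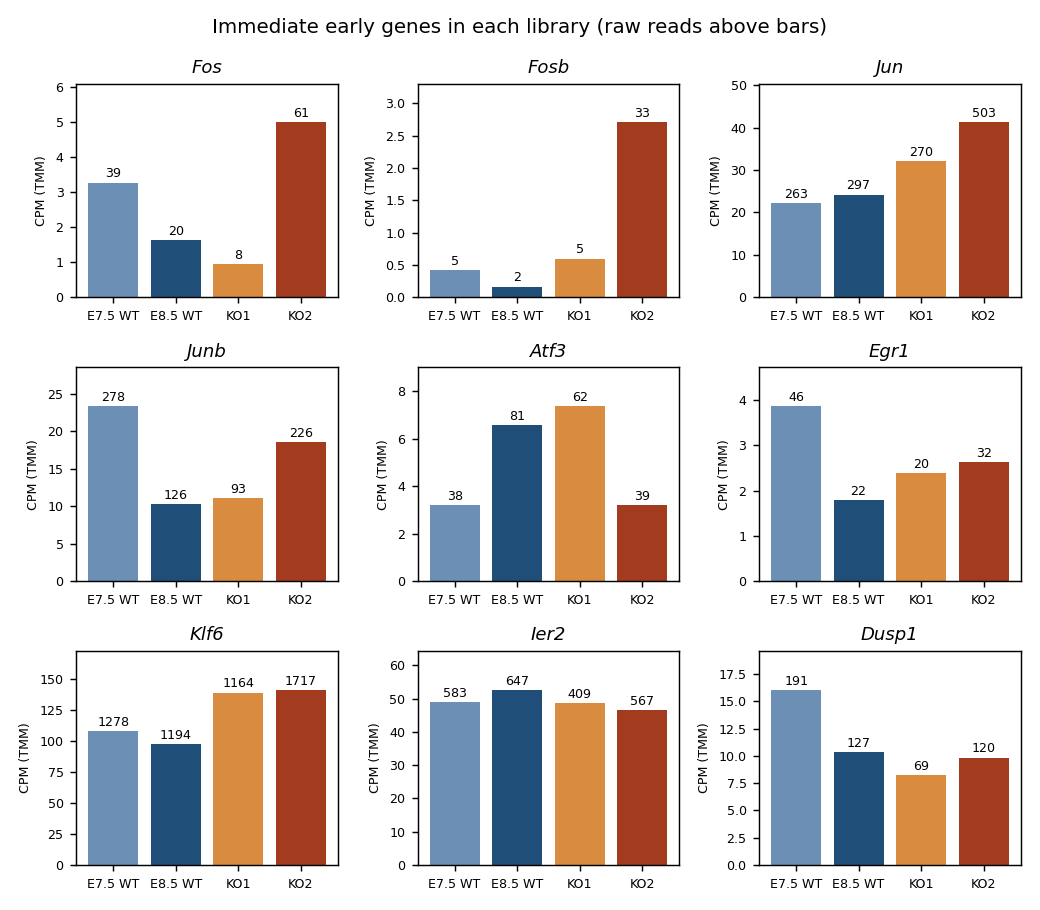
Level of each immediate early gene in CPM (TMM-scaled, linear axes that start at 0 and differ between panels), with 1 bar for each library and the raw reads above it. Fos, Fosb, Jun and Klf6 are highest in KO2, Atf3 is high in E8.5 WT and KO1, and Junb, Egr1 and Dusp1 are highest in E7.5 WT. Jun and Klf6 are higher in both KO libraries than in either WT library.

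FOS family members had the widest range. Fos, the founding AP-1 subunit, had 39 reads in the earlier and 20 in the later WT library, 8 in KO1 and 61 in KO2. These were 3.28, 1.63, 0.953 and 5.01 CPM, so that both WT libraries lay between the KO libraries. Log2 changes are differences of log2 CPM with a prior count of 2, and their 95% intervals are exact binomial intervals that cover counting error only. The intervals and the ratios of CPM take no prior count, so log2 changes on few reads lie nearer 0 than these ratios imply. Against E8.5 WT the log2 change of Fos was -0.67 in KO1 (95% interval -2.16 to 0.47) and 1.52 in KO2 (0.87 to 2.43). Its mean was 0.42 ± 1.55 (SD, n = 2), and the KO libraries differed in direction. Between KO2 and KO1 the log2 change was 2.20 (1.32 to 3.67), or 5.25-fold as a ratio of CPM.

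Fosb, a closely related subunit, had 5, 2, 5 and 33 reads, the last in KO2. Only KO2 was above the minimum of 10 reads that a gene needed in at least 1 library to be tested, so Fosb was tested only because it was high there. The log2 change against E8.5 WT was 1.18 in KO1 (95% interval -0.74 to 5.26), which counting error alone could give, and 3.08 in KO2 (2.09 to 7.16). The ratio of CPM between KO2 and E8.5 WT was 16.6, with an interval of 4.26 to 143 that reflects the 2 reads of E8.5 WT. Against KO1 the level in KO2 was 4.55-fold higher (1.76 to 14.9).

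JUN family members were more abundant and less variable. Jun, which can pair with itself as well as with FOS proteins, had 263 and 297 reads in WT, 270 in KO1 and 503 in KO2. On the CPM scale these were 22.1, 24.2, 32.2 and 41.3, and both KO libraries lay above both WT libraries. The log2 change against E8.5 WT was 0.41 in KO1 (95% interval 0.17 to 0.65) and 0.77 in KO2 (0.56 to 0.98), with a mean of 0.59 ± 0.25 (SD, n = 2). Against E7.5 WT it was 0.54 and 0.90. Junb, a JUN protein that often restrains the activity of JUN, had 278, 126, 93 and 226 reads in the same order of libraries. Its level was 23.4 CPM at E7.5 WT and 10.3 CPM at E8.5 WT, a log2 change of -1.17 (-1.50 to -0.88). KO1, with 11.1 CPM, was near E8.5 WT at a log2 change of 0.11 (-0.29 to 0.51), and KO2, with 18.5 CPM, was higher than E8.5 WT by 0.84 (0.53 to 1.18). The groups of Junb values overlapped, since the KO libraries lay between the WT stages.

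The balance of the AP-1 families was taken as the summed RPKM of Jun and Junb over that of Fos and Fosb. It was 11.9 and 16.3 in the WT libraries, 26.6 in KO1 and 7.51 in KO2. Jun and Junb together thus exceeded Fos and Fosb in every library, and the lowest and the highest ratio were those of the KO libraries. The ratio leaves out the other FOS and JUN family genes and carries no interval. In KO1 it rested on 8 reads of Fos and 5 of Fosb, so its order against the WT libraries is uncertain.

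Atf3, a stress-induced factor that binds cyclic AMP response elements, went the other way from Fos between the KO libraries. It had 38 and 81 reads in WT, 62 in KO1 and 39 in KO2, or 3.20, 6.59, 7.38 and 3.20 CPM. E8.5 WT and KO1 were high, and E7.5 WT and KO2 were low. The log2 change against E8.5 WT was 0.16 in KO1 (95% interval -0.34 to 0.66) and -1.002 in KO2 (-1.63 to -0.47). KO2 differed from E7.5 WT by a log2 change of 0.00 (-0.68 to 0.69).

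Egr1, a zinc-finger factor induced by ERK signaling and located on chromosome 18, had 46, 22, 20 and 32 reads. The level was 3.87 CPM at E7.5 WT and between 1.79 and 2.63 CPM in the other libraries. Its log2 change from E7.5 WT to E8.5 WT was -1.04 (95% interval -1.91 to -0.35). Against E8.5 WT it was 0.38 in KO1 (-0.54 to 1.35) and 0.51 in KO2 (-0.28 to 1.41), and a difference was not detectable at this depth.

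Klf6 was the member with the closest KO libraries. It had 1278 and 1194 reads in WT, 1164 in KO1 and 1717 in KO2, or 107, 97.2, 139 and 141 CPM. Both KO libraries lay above both WT libraries. The log2 change against E8.5 WT was 0.51 in KO1 (95% interval 0.39 to 0.63) and 0.54 in KO2 (0.43 to 0.64), a mean of 0.52 ± 0.02 (SD, n = 2), and against E7.5 WT it was 0.37 and 0.39. These are 1.43-fold and 1.45-fold higher levels than in E8.5 WT, under the threshold of 1 on the log2 scale.

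Ier2 hardly varied. Its 583, 647, 409 and 567 reads came to 49.0, 52.6, 48.7 and 46.5 CPM. The log2 change against E8.5 WT was -0.11 in KO1 (95% interval -0.29 to 0.07) and -0.18 in KO2 (-0.34 to -0.01). Dusp1, a phosphatase that switches off MAP kinases and is itself an early gene, had 191, 127, 69 and 120 reads, or 16.1, 10.3, 8.22 and 9.85 CPM. E7.5 WT was the highest library. The change was -0.63 (-0.97 to -0.30) from E7.5 WT to E8.5 WT, -0.32 (-0.78 to 0.10) from E8.5 WT to KO1 and -0.07 (-0.44 to 0.30) from E8.5 WT to KO2. Against E7.5 WT the KO libraries were lower by -0.95 and -0.70.

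The first comparison asked how the group differed between the WT stages. With a threshold of 1 on the log2 scale, 1 of 9 members was higher at E8.5 WT (Atf3, at a log2 change of 1.005) and 2 of 9 were lower (Junb and Egr1), whereas 12.2% of 14393 genes kept were higher and 7.82% lower. Each stage had 1 library, and these calls carry no p. Counting intervals lay below 0 for 5 members (Fos, Junb, Egr1, Dusp1 and Klf6), where 33.4% of all genes kept did, and above 0 for 1, Atf3, where 34.2% did. Since they cover counting error only, such intervals exclude 0 for many genes. The median log2 change of the members was -0.63, against -0.02 over all genes kept. The Atf3 call was lost with DESeq2 size factors or plain CPM, and that of Egr1 with a minimum of 50 reads.

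The second comparison was that of the KO libraries with E8.5 WT. Both KO libraries were past the threshold for 1 of 9 members, Fosb, which was higher, and for none in the lower direction, against 3.44% of all genes in the higher and 1.79% in the lower direction. Fosb passed the read minimum only through KO2, where it was high, and no member was counted with a minimum of 50 reads, so nothing is read from this count. Without KO1, Fos and Fosb were higher and Atf3 lower. Without KO2, Fosb alone was past the threshold, on 5 reads against 2. Counting intervals were above 0 for 2 members in KO1 (Jun and Klf6, where 21.6% of all genes were) and for 5 in KO2 (Fos, Fosb, Jun, Junb and Klf6, where 26.8% were). They were below 0 for none in KO1, where 23.6% of all genes were, and for 2 in KO2 (Atf3 and Ier2, where 27.6% were). The median over members was 0.16 in KO1 and 0.54 in KO2, where that of all genes was -0.01 and 0.00. The KO libraries share E8.5 WT as reference, and so are not independent in this comparison.

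**Figure D2:**
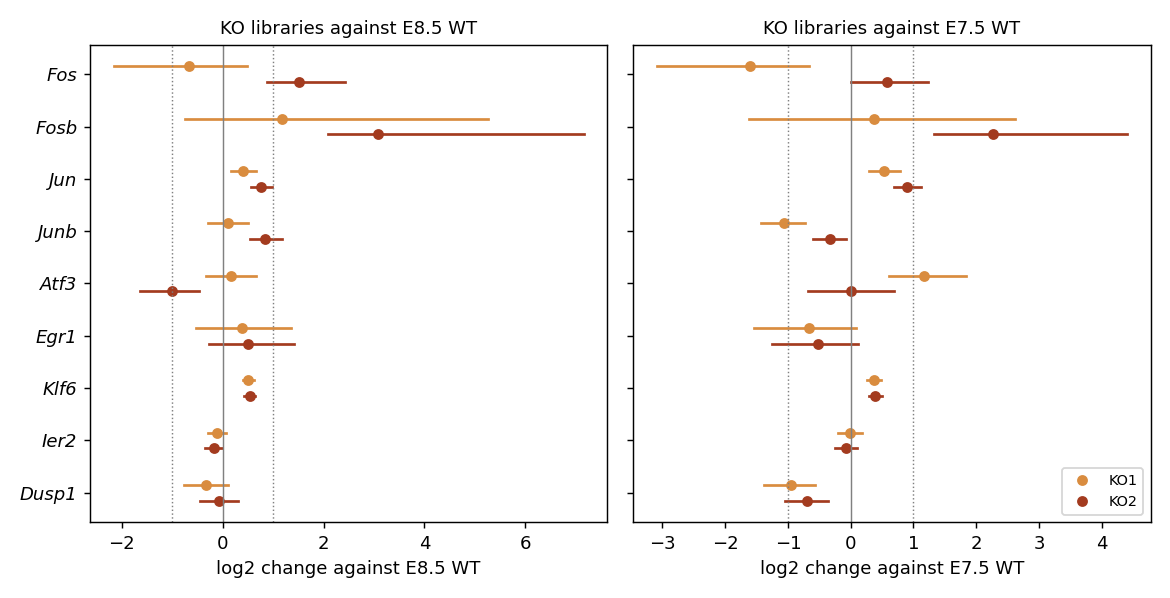
Log2 change of each immediate early gene in KO1 and KO2 against E8.5 WT (left) and E7.5 WT (right), with 95% binomial counting intervals as lines and the thresholds of -1 and 1 dotted. KO1 and KO2 lie on opposite sides of 0 for Fos and Atf3 against E8.5 WT, and nearly together for Klf6 at 0.51 and 0.54.

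No member passed a replicated test. In edgeR's quasi-likelihood test of KO against E8.5 WT with Benjamini-Hochberg adjustment, 0% of 14393 genes were called, and members had adjusted p between 0.666 and 0.885. Klf6 had an unadjusted p of 0.0129 in this edgeR test, and was the only member under 0.05, as were 1052 genes in all. DESeq2 called 31 genes and had 508 at an unadjusted p under 0.05, with an unadjusted p of 0.0458 for Klf6. It gave no adjusted p for 3 members (Fos, Fosb and Egr1), which could not be called, and called 0 of the others. When both WT libraries formed the reference, edgeR called 0% of genes, with 565 at an unadjusted p under 0.05, and DESeq2 called 32. The unadjusted edgeR p was then 0.0395 for Jun and 0.0449 for Klf6, and the lowest adjusted p of a member was 0.900. With both WT libraries as reference, the difference between their stages was part of the spread. The first test could estimate the spread only between KO1 and KO2. Fos, which differed most between them in CPM ratio, had an unadjusted p of 0.476 in that edgeR test.

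Against E7.5 WT, no member passed the threshold in KO1 and KO2 together in either direction, where 6.91% of genes were higher and 2.7% lower. KO1 alone had Atf3 higher by 1.16 and Fos and Junb lower, at -1.61 and -1.07. KO2 alone had Fosb higher by 2.27, but Fosb was kept only for its reads in KO2, so nothing is read from its call or interval. Counting intervals were below 0 for 3 members in KO1 (Fos, Junb and Dusp1, where 31.3% of all genes were) and for 2 in KO2 (Junb and Dusp1, where 28.4% were). They were above 0 for 3 in KO1 (Jun, Atf3 and Klf6, where 33.9% were) and for 4 in KO2 (Fos, Fosb, Jun and Klf6, where 35% were).

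KO2 was then set against KO1. Fos and Fosb were higher and Atf3 lower in KO2 (2 and 1 of 9), where 5.99% of genes were higher and 4.89% lower. Fosb was kept only for its reads in KO2, and with a minimum of 50 reads Fos alone was higher. The log2 change of Atf3 was -1.16 (95% interval -1.82 to -0.61). Jun and Junb had intervals above 0 as well, at 0.36 (0.14 to 0.58) and 0.73 (0.39 to 1.11), where 21.8% of all genes lay above 0 and 19% below. Egr1, Klf6, Ier2 and Dusp1 had intervals that included 0.

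Reads from cells around the embryo also differed between the libraries. KO2 had 4156 reads of Prl3d1 and 1400 of Prl2c2, prolactins of trophoblast giant cells, where KO1 had 3 and 4. E7.5 WT had 27 and 3 reads of these. Its trophoblast sum without Hand1 came mainly from Elf5 (795, 3, 3 and 10 reads) and Ascl2 (358, 10, 11 and 54 reads). Both were lower in KO2 than in E7.5 WT, by log2 changes of -6.07 and -2.72. The sum thus stands for different genes in E7.5 WT and in KO2. Not every marker was higher in KO2. Against KO1 the log2 change of Hand1 was -0.35 (95% interval -0.42 to -0.29), and those of the decidua markers Cryab and Dcn were -0.65 (-1.06 to -0.28) and -0.42 (-1.44 to 0.52), while Prl8a2, the main decidua marker, was higher by 3.92 (3.59 to 4.33). Gzma to Gzmg, granzymes of uterine natural killer cells, were the bulk of 9 markers that summed to 3.19 and 0.244 CPM in WT, 3.57 in KO1 and 23.1 in KO2. Macrophage markers summed to 8.32, 2.36, 2.50 and 19.6 CPM, with Csf1r at 36, 15, 11 and 131 reads. Of the 9 natural killer cell markers, 2 and 6 were at 0 reads in the WT libraries, 1 in KO1 and none in KO2. Of the 10 macrophage markers, 1, 4, 4 and 0 were at 0. Granulocyte markers were near absent, with at least 3 of 5 at 0 in every library. Among trophoblast markers, Tpbpa of the spongiotrophoblast was at 0 throughout. Fosl1, a FOS family gene of trophoblast chosen here after its values were seen, had 42, 2, 2 and 230 reads. Fos and Fosb, the latter kept only for its reads in KO2, were higher in KO2 than in KO1, and Atf3 was lower. The summed trophoblast, decidua, natural killer cell and macrophage markers were also higher in KO2, and the visceral endoderm sum was alike. From E8.5 WT to KO1 the trophoblast sum was higher mainly through Hand1, and without Hand1 it rested on 16 and 22 reads. The sums of decidua markers (152 and 201 reads) and natural killer cell markers (3 and 30 reads) were higher. That of macrophage markers was 2.36 and 2.50 CPM. The interval of Fos between E8.5 WT and KO1 included 0 (-2.16 to 0.47). Between the WT stages the interval of Fos was below 0 (-1.87 to -0.20), and that of Fosb, on 5 and 2 reads, included 0 (-4.76 to 1.24). The part of these cells in the results was not tested. In whole-embryo RNA, more cells of a type and more RNA per cell cannot be told apart.

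**Figure D3:**
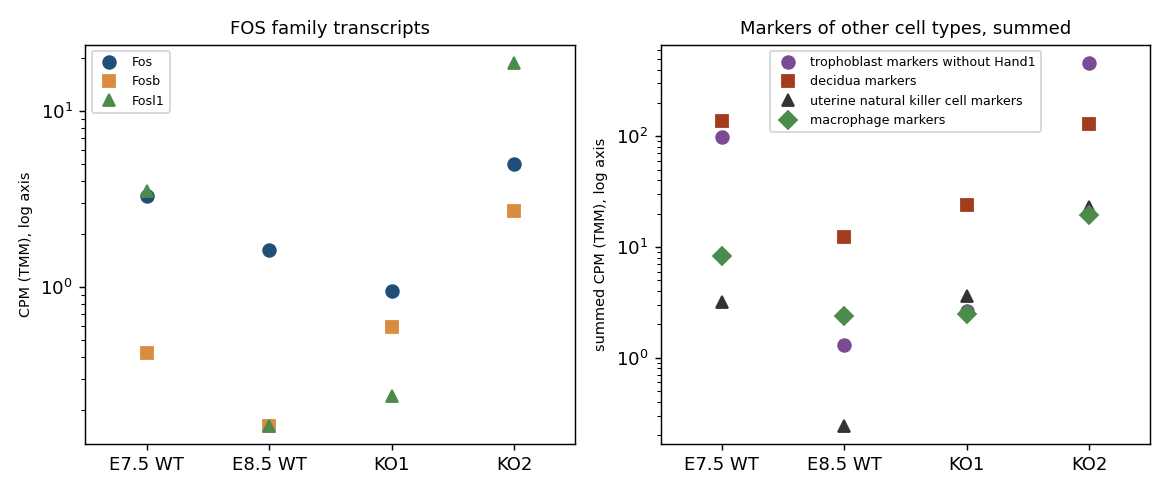
Left, level of Fos, Fosb and Fosl1 in each library in CPM (log axis). Right, summed CPM (log axis) of markers of trophoblast (without Hand1), decidua, uterine natural killer cells and macrophages, where KO2 is above KO1 for every list and E7.5 WT above E8.5 WT. The trophoblast sum is mainly Elf5 and Ascl2 in E7.5 WT and mainly Prl3d1 and Prl2c2 in KO2. In E8.5 WT the symbols of Fosb and Fosl1 coincide at 0.163 CPM.

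The rest of the early response program was described from lists compiled for the present work. None of their genes had an adjusted p under 0.05 in the edgeR tests. The counts are of genes kept that passed the threshold against E8.5 WT in KO1 and KO2 alike. Over all genes kept, 3.44% did so in the higher and 1.79% in the lower direction. Of 9 other AP-1 and Maf partners kept, none was past it in both. Median changes of this list were 0.29 in KO1 and 0.05 in KO2. Of 4 EGR and NR4A factors kept, 2 were lower and none higher. Egr2, a hindbrain and neural crest factor, had 7 and 35 reads in WT, 5 in KO1 and 4 in KO2. Its log2 change against E8.5 WT was -1.97 (95% interval -3.97 to -0.90) and -2.58 (-5.07 to -1.63). Nr4a3, an orphan nuclear receptor, had 3, 35, 7 and 12 reads, with log2 changes of -1.58 and -1.38. Both were also low in E7.5 WT, unlike Egr1.

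Of 26 other early response genes kept, 1 was higher and 1 lower in both KO libraries, where 3.44% and 1.79% of all genes were. Klf4, a pluripotency and epithelial factor, had 154, 75, 106 and 287 reads, with log2 changes against E8.5 WT of 1.03 and 1.92. Pim1, a survival kinase, had 437, 451, 134 and 130 reads. Both KO libraries of Pim1 lay below both WT libraries, at -1.19 (95% interval -1.49 to -0.92) and -1.77 (-2.08 to -1.50) against E8.5 WT. DESeq2 gave Pim1 an adjusted p of 0.0420 against both WT libraries and 0.491 against E8.5 WT, where edgeR gave 0.900 and 0.666. The median of this list was -0.09 in KO1 and 0.12 in KO2.

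Among 8 other MAP kinase phosphatases, 1 was higher and none lower, where 3.44% and 1.79% of all genes were. Dusp8, which acts on JNK and p38, had 18, 10, 29 and 87 reads, and its log2 changes were 1.87 (95% interval 1.01 to 3.29) and 2.88 (2.19 to 4.24). The list's medians were -0.45 and -0.40, on the other side of 0 from Dusp8. The 11 inducing kinases and factors (ERK and JNK kinases, SRF, its partners and CREB1) had none past the threshold in both libraries and medians of -0.10 and -0.20. None of 8 AU-rich element binding proteins, such as the decay factor ZFP36 and the stabilizing factor ELAVL1, was past it, and their medians were -0.15 and -0.14.

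Inducible heat shock genes were included because they respond to handling and stress on a similar time scale. In both KO libraries 3 of 7 were higher than in E8.5 WT and none was lower, where 3.44% and 1.79% of all genes were. Hspa1a had 52, 5, 31 and 59 reads and Hspa1b 132, 32, 107 and 153. The log2 changes were 2.72 and 3.10 for Hspa1a and 2.22 and 2.19 for Hspa1b. These near-identical copies of the HSP70 gene may share reads, so that their split is uncertain and they may not be separate members of the count. Hspb1, a small heat shock protein, had 252, 54, 95 and 476 reads, with changes of 1.33 and 3.10. E8.5 WT was the lowest library for all 3, below E7.5 WT as well. Against E7.5 WT, 0 of 7 passed the threshold in both KO libraries, where 6.91% of all genes were higher and 2.7% lower. The medians of the list were 0.50 and 0.20.

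**Figure D4:**
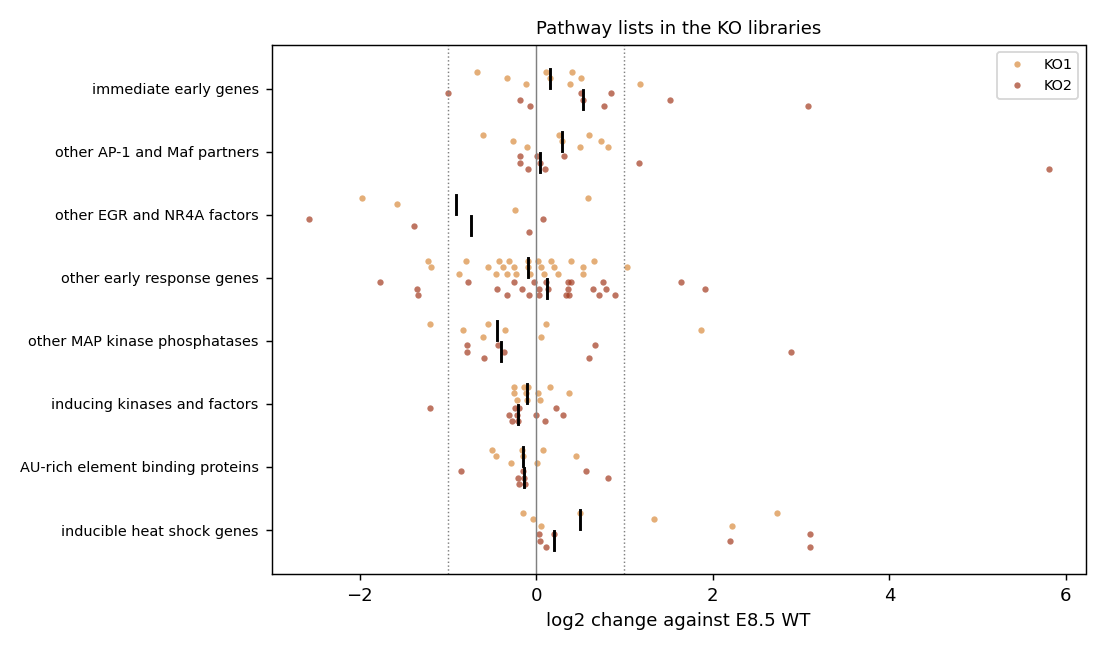
Log2 change against E8.5 WT of every gene kept in each list (points, KO1 above KO2 in each row), with medians as black bars and the thresholds of -1 and 1 dotted. Medians of the immediate early genes are 0.16 and 0.54, those of the EGR and NR4A factors lie below 0, and those of the inducing kinases and the AU-rich element binding proteins are near 0.

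Over all genes, levels were also set against copies of TATTTAT in the 3′ UTR, which 6 members carry. From 0 to 1, 2 and 3 or more copies, the median log2 change of KO1 against E8.5 WT was 0.01, -0.02, -0.05 and -0.09, and that of KO2 was 0.03, -0.06, -0.11 and -0.15. The bins held 9319, 2640, 895 and 565 genes. Median 3′ UTR length moved with them, at 874, 1840, 2542 and 3310 bases, and its part was not tested. Between the WT stages the medians were -0.14, 0.23, 0.40 and 0.58. Members with the word had log2 changes in KO2 from -1.002 (Atf3) to 3.08 (Fosb), and those without it from -0.18 (Ier2) to 0.84 (Junb), which overlap. Fosb was kept only for its reads in KO2, and without it the highest change with the word was 1.52 (Fos).

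The genes with a pattern most like that of the better-measured members were found by the distance between centred log2 CPM profiles over the 4 libraries. The reference was the median profile of 6 members with a mean of at least 50 reads (Jun, Junb, Atf3, Klf6, Ier2 and Dusp1). It was nearly flat, at -0.08 and -0.16 in the WT libraries, 0.07 in KO1 and 0.08 in KO2. Among 11216 genes the nearest were Csad, Btbd9, Lss, Fam13c and Foxj2, at distances of 0.0521 to 0.0582. Csad, for example, had 223, 214, 174 and 251 reads.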

How the data were processed

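Polyadenylated RNA of whole embryos was sequenced in 4 libraries grouped by the sample labels. The authors deposited raw counts per gene. Per their methods and processing notes, reads were trimmed with Cutadapt 2.8, aligned to mm10 with HISAT2 2.1.0, and assigned by strand to exons with featureCounts 2.0.0. Depth was between 8198402 and 12562640 counts.

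Counts were scaled with TMM, the default size correction of edgeR 4.0.16 in R 4.3.3 (factors of 0.983 and 0.978 for the WT stages, 1.02 for KO1 and 1.01 for KO2). Genes with at least 10 counts in 1 library were kept (14393). Log2 CPM used a prior count of 2. Clopper-Pearson 95% intervals cover counting error only, since PCR copies were not told apart. With edgeR, quasi-likelihood tests (two-sided, Benjamini-Hochberg adjustment, 0.05) set KO against the E8.5 WT library and, separately, against the pair of WT libraries. DESeq2 1.42.0 was the alternative. The p-values rest on the spread between these few libraries. Against E8.5 WT that spread comes from KO1 and KO2 alone. Against the pair of WT libraries it also holds the difference between the WT stages.

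Members, lists and tests were chosen with earlier results of these data known. Named genes were all members, Ddx6, list genes whose change from E8.5 WT passed 1 in both KO libraries (at most 4 a list) and the 5 most like the members. Fosl1 and the marker genes fall outside this rule. GENCODE M21 (GRCm38) matched 23376 genes (95.7%). Scripts were tested on simulated data.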

Additional observations from a re-analysis of the deposited data

How the results depend on the processing

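Of 86 values under alternatives, 16 were counted as moved. For a member's mean change, this took a shift of at least the SD between the KO libraries, and for counts a change of over 1.5 times. The trophoblast ratio without Hand1 was counted as moved without such a rule. Leaving out a KO library shifts a mean by less than that SD whatever the values are. Those rows could not be counted as moved, and the tally says nothing about them. The mean changes of 2 members against E8.5 WT, neither past the threshold, turned sign without KO2, from 0.42 to -0.67 for Fos and from -0.42 to 0.16 for Atf3. Leaving Hand1 out of the trophoblast markers, added after the data were seen, moved their ratio between KO2 and KO1 from 1.86 to 176. A threshold of 2 left 0 members past it between the WT stages, 0 in both KO libraries against E8.5 WT and 1 (Fos) between KO2 and KO1. With a minimum of 50 counts, the count for both KO libraries against E8.5 WT was 0, since Fosb was no longer tested. Leaving out each KO library gave 1 to 3 members against E8.5 WT (3 without KO1) and 1 to 3 against E7.5 WT (1 without KO1, 3 without KO2). The edgeR test against E8.5 WT called 8 genes with no filter, and DESeq2 called 31. Against both WT libraries DESeq2 called 32, and leaving out each library in turn gave 0 to 51 genes in edgeR (51 without KO1, 1 without KO2, 1 without E7.5 WT and 0 without E8.5 WT), where the lone library of a group was assumed to vary like the others. The cause was not tested. Members called were 0 in each of these tests, where DESeq2 against E8.5 WT gave no adjusted p for Fos, Fosb and Egr1. With plain CPM the mean changes of Ier2 and Klf6 against E8.5 WT were -0.09 and 0.58, and the median of all genes moved to 0.06 in KO1 and 0.05 in KO2. No paired analysis was possible because only the KO group carries more than 1 replicate number. Fosb, Fos and Egr1, with 2 to 61 reads, were limited most by depth.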
